A study of Homo sapiens with 2 samples.

Results

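The aminoacyl-tRNA synthetases described here are 36 genes, taken by symbol from a fixed list and found in both deposited tables among 26257 gene names that the tables share. Of these, 20 make the cytosolic enzymes and 16, whose symbols end in ARS2, make the mitochondrial enzymes. RNA was sequenced from PLC cells, an established human liver cancer cell line. The control culture, labelled WT, carried the empty vector (EV), and the other over-expressed human PRSS35, a secreted protease, from the pCDH expression vector after stable introduction. The paper's stable lines were selected with puromycin, and no further treatment of the cultures used for RNA is named in the sources used here. Whether a line was 1 clone is not given in the sources used here. There was 1 library per condition, so no difference has a replicate check, no test across conditions was possible and no p-value is given.

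An aminoacyl-tRNA synthetase joins an amino acid to the transfer RNA that carries its anticodon, the step at which the genetic code is read into protein. Human cells keep separate sets of these enzymes for translation in the cytosol and in the mitochondrion, and all of them are encoded in the nucleus. The enzymes fall into class I and class II by the fold of their catalytic core. In the cytosol, several are held with 3 scaffold proteins in the multisynthetase complex. Many cytosolic synthetase genes are known targets of ATF4, the transcription factor of the amino acid response, and liver cells, which export much protein, depend on a steady supply of charged transfer RNA.

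Levels are FPKM, which divides the fragments of a gene by its transcript length and by the size of the library, a scale on which genes can be set side by side. Each level has the interval that the authors' Cufflinks run put around it. It covers the error of counting and assigning fragments in that library, and variation between cultures is outside it. The number of fragments that an interval implies ran from 100 to 3173 for the members in EV and from 118 to 7631 in PRSS35, and over 340 loci a single fragment was worth the same FPKM in both libraries, with a median ratio of 1.00. The over-expressed gene PRSS35 went from 0.643 FPKM in EV (interval 0.445 to 0.841) to 1836 FPKM in the PRSS35 library (interval 1759 to 1912), as the labels state. All 9 hepatocyte lineage genes checked were above 1 FPKM in both libraries. However, ALB, the albumin gene, was low at 4.05 FPKM in EV and 5.21 FPKM in PRSS35, and TTR was lower, at 1.56 and 1.61 FPKM. Of 7 markers of blood, endothelial and stromal cells, 6 were under 1 FPKM in both. CD68 was at 297 FPKM in EV and 278 FPKM in PRSS35, at a locus joined with MPDU1. In bulk RNA, fewer cells that express a gene and less of its RNA per cell cannot be told apart.

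Sequences before the starts of the members were searched for the core of the C/EBP-ATF response element, which ATF4 binds at genes of the amino acid response, since this is the element by which synthetase genes are known to share control. The letters searched were TGATGNAA, where N is any base, on both strands of the 250 bases before each start in the RefSeq promoter table (GRCh38.p14). The table held 30 of the 36 members, while DARS, LARS, VARS, YARS, AARS2 and VARS2 had no entry. The letters were present at 4 of the 30 (13.3%), namely 3 of 16 cytosolic and 1 of 14 mitochondrial genes, and at 3.89% of all 27305 genes in the table. The windows are written in the direction of the gene, and the capitals mark the match, which reads TGATGNAA on the opposite strand in the first 3. AARS (alanine) lies at chr16:70289675-70289704 on the minus strand, GARS (glycine) at chr7:30594834-30594863 on the plus strand, IARS (isoleucine) at chr9:92293698-92293721 on the minus strand and YARS2 (mitochondrial tyrosine) at chr12:32756076-32756105 on the minus strand.
AARS: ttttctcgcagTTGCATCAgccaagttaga
GARS: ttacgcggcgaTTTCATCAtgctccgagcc
IARS: ttttcagcgcgTTGCATCAcctcc
YARS2: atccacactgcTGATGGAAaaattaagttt
AARS and IARS hold the same 8 letters. A match is a description of the letters and does not show that a factor binds there. The differences between the libraries for these 4 genes, as log2 ratios, were 0.05 for AARS, 0.18 for GARS, 0.02 for IARS and 0.11 for YARS2.

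All 36 members were expressed, with a mean FPKM over both libraries of at least 1. The cytosolic enzymes ran from 7.12 to 407 FPKM in EV cells with a median of 44.8, and from 7.22 to 329.6 FPKM in PRSS35 cells with a median of 52.8. The mitochondrial enzymes were less abundant, from 2.24 to 74.5 FPKM in EV with a median of 15.5, and from 2.25 to 75.8 FPKM in PRSS35 with a median of 13.4. Without HARS2 and AARS2, each joined with another gene in 1 library only, the mitochondrial median was 15.5 FPKM in EV and 16.9 FPKM in PRSS35, the opposite direction. FARSA, the catalytic subunit of the cytosolic phenylalanine enzyme, was the most abundant member in both libraries. Its partner FARSB, which forms the same heterotetramer, was at 21.8 FPKM in EV and 23.4 FPKM in PRSS35, far below FARSA. The summed level of the 20 cytosolic genes was 1798 FPKM in EV and 1762 FPKM in PRSS35, and that of the 16 mitochondrial genes 334 and 324 FPKM, so neither summed level moved by more than 0.05 on the log2 scale. Without HARS2 and AARS2 the mitochondrial sum was 298 FPKM in EV and 304 FPKM in PRSS35.

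**Figure D1:**
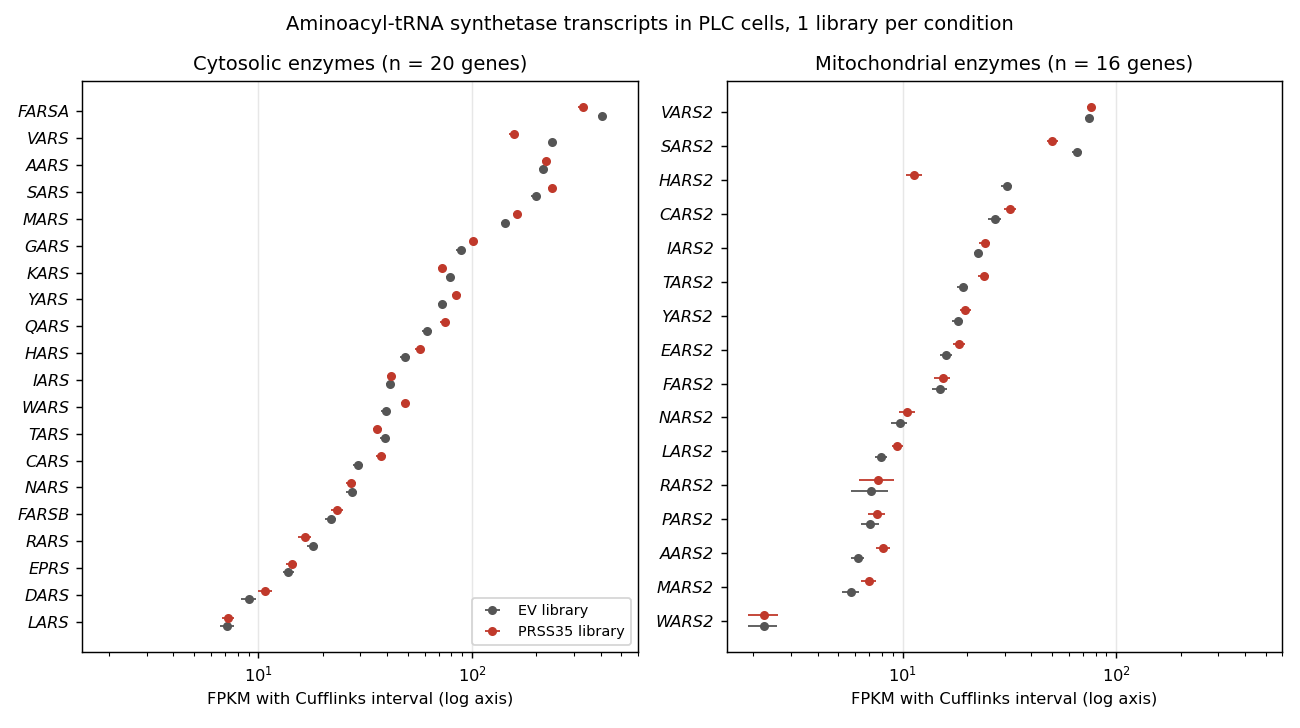
FPKM of the 20 cytosolic (left) and 16 mitochondrial (right) synthetase genes on a log axis, with grey points for the EV library, red points for the PRSS35 library and bars for the Cufflinks interval. The points of a gene lie close together except for HARS2 (30.7 and 11.3 FPKM) and VARS (238 and 157 FPKM), and the cytosolic set reaches higher levels than the mitochondrial set.

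For each gene, 1 FPKM was added to both levels and the log2 of PRSS35 over EV was taken as the difference. Of the 36 members, 28 (77.8%) were above 0 and 8 below, while 60.2% of the 11118 expressed gene names were above 0. With upper quartile scaling, 21 members were above 0 and 15 below, beside 50.7% of expressed names above 0. Without that scaling, the median was 0.10 over the members and 0.06 over the expressed names. No member was higher by 1.5-fold or more, as 5.23% of expressed names were, or by 2-fold or more (2.73% of expressed names). VARS and HARS2 were lower by 1.5-fold or more, as were 4.28% of expressed names, and only HARS2 was lower by 2-fold or more (2.48% of expressed names). By the Cufflinks intervals, 15 members (41.7%) were higher in PRSS35 with no overlap between the libraries, against 25.1% of expressed names. A further 4 members (11.1%) were lower with no overlap, against 15.5%, and for 17 the intervals overlapped. Among the 8892 names within the members' range of mean FPKM, 27.0% were higher and 16.0% were lower. The 15 higher members became 14 when HARS2 and AARS2 were summed with the gene joined to them. The split of 15 higher and 4 lower became 10 and 7 when FPKM was scaled to the upper quartile of expressed names, and 34 and 1 when every locus, named or not, entered the sum it was divided by. The latter scaling moved the median of all expressed names to 0.67, since unnamed loci held 65.3% of that sum in EV and 44.9% in PRSS35.

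**Figure D2:**
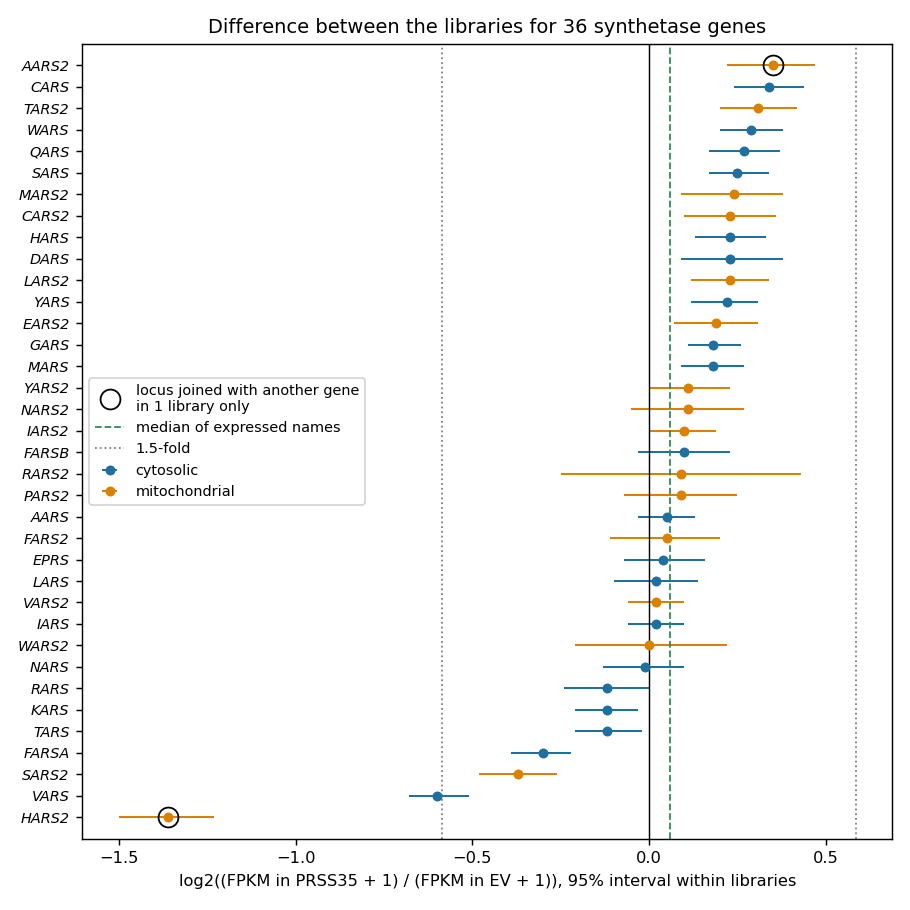
Log2 ratio of PRSS35 over EV for the 36 genes in order, blue for cytosolic and orange for mitochondrial enzymes, with bars for the 95% interval from the Cufflinks bounds of both libraries. Of the genes, 28 lie between 0 and 0.35 (21 lie above 0 with upper quartile scaling), with VARS at -0.60 and HARS2 at -1.36 apart from the rest, and the circled genes, HARS2 and AARS2, had a locus joined with another gene in 1 library only.

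The medians of the cytosolic and the mitochondrial enzymes lay close together. The median log2 ratio was 0.08 over the cytosolic and 0.10 over the mitochondrial genes, a difference of medians, cytosolic minus mitochondrial, of -0.03. With intervals that did not overlap, 9 of 20 cytosolic genes (45%) were higher and 2 (10%) were lower. Of 16 mitochondrial genes, 6 (37.5%) were higher and 2 (12.5%) were lower. The shares over all expressed names were 25.1% higher and 15.5% lower. With only 2 genes lower in each set, the lower shares cannot be told from the background. Without HARS2 and AARS2, whose loci differ in extent between the libraries, the mitochondrial median was again 0.10, with 5 of 14 genes higher and 1 lower. Genes are not replicates, and no test of the difference between the sets was made.

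VARS, which charges valine and works next to the elongation factor complex that brings charged transfer RNA to the ribosome, stood lowest among the members whose locus was not joined. It was at 238 FPKM in EV cells (interval 229.9 to 247) and 157 FPKM in PRSS35 cells (interval 149.7 to 165), a log2 ratio of -0.60 with a 95% interval of -0.68 to -0.51. The gene lies on chromosome 6 of hg19, in the major histocompatibility complex region, and its locus spans 31745297 to 31763712 in both tables. VARS2, the mitochondrial valine enzyme, lies on the same chromosome at a locus joined with GTF2H4 in both libraries and was at 74.5 FPKM in EV (interval 71.6 to 77.4) and 75.8 FPKM in PRSS35 (interval 72.6 to 79.0). The copies of VARS and VARS2 on alternate haplotypes are listed at 0 in both tables, so they take nothing from either value. When FPKM was scaled to the sum of all loci, the log2 ratio of VARS was 0.11, below the median of 0.67 that expressed names then had.

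FARSA and SARS2 were also lower in PRSS35, with intervals that did not overlap. FARSA, on chromosome 19 from 13033284 to 13044558, was at 407 FPKM in EV (interval 389 to 424) and 329.6 FPKM in PRSS35 (interval 315 to 344), a log2 ratio of -0.30. The other subunit of the same enzyme, FARSB, did not share this direction, with a log2 ratio of 0.10 and overlapping intervals. SARS2, the mitochondrial serine enzyme on chromosome 19 from 39405904 to 39421536, was at 65.5 FPKM in EV (interval 62.0 to 68.9) and 50.3 FPKM in PRSS35 (interval 47.5 to 53.2), a log2 ratio of -0.37. It starts 181 bases from MRPS12, a mitochondrial ribosomal protein gene read in the opposite direction, which was at 591 FPKM in EV (interval 571 to 611) and 456 FPKM in PRSS35 (interval 439.6 to 471). SARS, the cytosolic serine enzyme, stood on the other side, at 199 FPKM in EV (interval 189 to 208) and 237 FPKM in PRSS35 (interval 228 to 247). Scaled to the sum of all loci, FARSA had a log2 ratio of 0.41 and SARS2 of 0.33.

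Over the 36 members, the log2 ratio and transcript GC content had a Spearman rank correlation of 0.14, or 0.15 without HARS2. The ratios differed between bands of GC content. VARS (61.7% GC), SARS2 (61.4%) and FARSA (61.3%) have the most GC-rich canonical transcripts of the 36 members (GENCODE v44lift37 on GRCh37, the assembly of hg19), and VARS2 follows with 59.9%. Among all expressed names with a GC value, 35.7% of those with 60% GC or more were lower in PRSS35 with no overlap of the intervals and 14.3% were higher. All 3 members in this band were lower. They also had a mean of at least 50 FPKM and a locus assembled from the reads in both libraries. Of 526 expressed names with these properties and at least 61% GC, 54.8% were lower and 11% were higher. These limits follow the values of the 3 members themselves, so the share is no independent comparison. VARS2 (59.9% GC, a joined locus assembled in both libraries) lies just outside them, with a ratio of 0.02 and overlapping intervals. Between 45% and 60% GC, 33.4% of expressed names were higher and 11.2% were lower, and of the 21 members in this band 14 were higher, 1 (HARS2) was lower and 6 had overlapping intervals. Under 45% GC, 20.0% of expressed names were higher and 9.65% were lower, and of 12 members 1 was higher and 11 had overlapping intervals. The part of GC content in the members' differences was not tested.

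Against expressed names within 2 points of the same GC content, 18 members lay above the median and 18 below, where 28 and 8 lay above and below 0 before. The median of the members relative to such names was 0.01, with 0.00 for the cytosolic and 0.01 for the mitochondrial enzymes. VARS was at -0.55 relative to 1179 names alike in GC, of which 4.24% had a lower ratio, and so was no longer past 1.5-fold. It was also short of 1.5-fold with FPKM scaled to the sum of named loci (-0.55) and with a pseudocount of 5 FPKM (-0.58). SARS2 was at -0.33 and FARSA at -0.27 on the same scale, with 10.0% and 14.6% of such names lower. KARS, at -0.26, came next among genes with an unjoined locus.

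HARS2, the mitochondrial histidine enzyme, had the lowest ratio of all members, but its locus is not the same in both tables. In EV, Cufflinks joined HARS2 and its neighbour ZMAT2 into 1 locus on chromosome 5, from 140071011 to 140086239, with 30.7 FPKM (interval 28.9 to 32.6). In PRSS35 they stand apart, HARS2 from 140071011 to 140078903 with 11.3 FPKM (interval 10.4 to 12.3) and ZMAT2 from 140080032 to 140086239 with 14.4 FPKM (interval 13.1 to 15.6). The log2 ratio of -1.36 therefore sets a value for both genes against that of HARS2 alone. Summed over both genes, the PRSS35 value was 25.7 FPKM, and the log2 ratio became -0.25. With the bounds summed likewise, 4 members were still lower with no overlap of the intervals, HARS2 among them. Of 320 expressed names joined with another gene in 1 library only, at least 1.5-fold higher values were seen for 31.6% and lower values of that size for 29.7%.

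**Figure D3:**
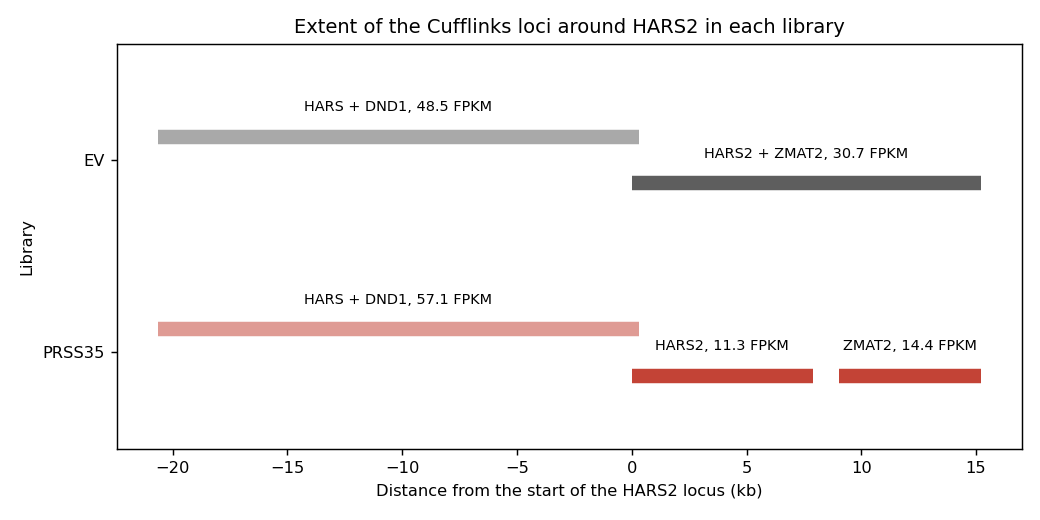
Extent of the Cufflinks loci around HARS2 in each library, in kilobases from the start of the HARS2 locus, with the FPKM of each locus. In EV, 1 locus of 30.7 FPKM covers HARS2 and ZMAT2, which are separate in PRSS35 with 11.3 and 14.4 FPKM, while the HARS locus has the same extent in both.

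HARS, the cytosolic histidine enzyme, starts head to head with HARS2, and the annotated genes overlap by 108 bases. Its locus, joined with DND1 in both libraries, was at 48.5 FPKM in EV (interval 45.8 to 51.2) and 57.1 FPKM in PRSS35 (interval 54.2 to 59.9). AARS2, the mitochondrial alanine enzyme, showed the reverse of the HARS2 case: it was alone in EV, at 6.17 FPKM (interval 5.75 to 6.60), and joined with TCTE1 in PRSS35, at 8.11 FPKM (interval 7.53 to 8.70). Its log2 ratio of 0.35, the highest of the members, became 0.09 when TCTE1, at 1.37 FPKM in EV, was added to the EV value. AARS, the cytosolic alanine enzyme, was joined with EXOSC6 in both libraries and had 215 FPKM in EV (interval 207 to 222) and 223 FPKM in PRSS35 (interval 213 to 233), which overlap. For these joined loci, and for VARS2 with GTF2H4, the share of each gene cannot be told apart.

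The enzymes of the multisynthetase complex differed little between the libraries. Their 8 log2 ratios ran from -0.12 to 0.27 with a median of 0.03. With no overlap of intervals, 3 (37.5%) were higher and none was lower, beside 25.1% and 15.5% of expressed names. QARS, the glutamine enzyme, was at 61.7 FPKM in EV (interval 58.6 to 64.8) and 74.5 FPKM in PRSS35 (interval 70.8 to 78.1). MARS, which also charges the initiator transfer RNA with methionine, was at 143 FPKM in EV (interval 136 to 149) and 162 FPKM in PRSS35 (interval 155 to 169). DARS, the aspartate enzyme, was at 9.02 FPKM in EV (interval 8.28 to 9.75) and 10.8 FPKM in PRSS35 (interval 9.94 to 11.6). The other 5 had overlapping intervals: EPRS, the fused glutamate and proline enzyme, IARS, LARS, RARS and KARS. Levels within the complex were unequal, from LARS at 7.12 FPKM to MARS at 143 FPKM in EV. The 3 scaffold proteins were likewise unequal, with AIMP1 at 4.14 FPKM in EV and 4.35 FPKM in PRSS35, AIMP2 at 59.6 and 65.9 FPKM, and EEF1E1, at a joined locus, at 102 and 118 FPKM. Of the scaffold genes, EEF1E1 was higher with no overlap of intervals.

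Among the 12 cytosolic enzymes outside the complex the ratios ran from -0.60 to 0.34, with a median of 0.14. CARS, the cysteine enzyme, had the highest ratio of the cytosolic set, 0.34, at 29.4 FPKM in EV (interval 27.8 to 30.9) and 37.5 FPKM in PRSS35 (interval 35.6 to 39.4). WARS, the tryptophan enzyme and a gene known to respond to interferon, was at 39.5 FPKM in EV (interval 37.5 to 41.4) and 48.5 FPKM in PRSS35 (interval 46.3 to 50.6). YARS, the tyrosine enzyme, was at 72.5 FPKM in EV (interval 69.0 to 76.0) and 84.5 FPKM in PRSS35 (interval 80.5 to 88.5). With SARS and HARS, these genes were higher in PRSS35 by less than 1.3-fold. TARS and NARS, for threonine and asparagine, were on the other side of 0, at -0.12 and -0.01, with overlapping intervals.

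GARS and KARS each make both the cytosolic and the mitochondrial enzyme, for glycine and for lysine, from 1 gene. GARS was at 88.7 FPKM in EV (interval 84.5 to 93.0) and 101 FPKM in PRSS35 (interval 98.7 to 103), and KARS at 78.9 FPKM in EV (interval 75.3 to 82.5) and 72.5 FPKM in PRSS35 (interval 69.2 to 75.8). They thus differed in direction, and the intervals of KARS overlapped. FPKM of a gene does not separate the transcripts for the 2 compartments.

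Of the mitochondrial set, VARS2, SARS2, HARS2, CARS2 and IARS2 had the highest FPKM in EV, where the value of HARS2 is that of the locus shared with ZMAT2 and that of VARS2 of the locus shared with GTF2H4. Alone in PRSS35, HARS2 was below TARS2, YARS2, EARS2 and FARS2. CARS2, the cysteine enzyme, was at 27.0 FPKM in EV (interval 25.1 to 29.0) and 31.8 FPKM in PRSS35 (interval 29.8 to 33.9). IARS2, the isoleucine enzyme, was at 22.6 FPKM in EV (interval 21.7 to 23.6) and 24.3 FPKM in PRSS35 (interval 22.9 to 25.7), which overlap. TARS2, for threonine, had the highest ratio among mitochondrial genes with an unjoined locus, 0.31, at 19.1 FPKM in EV (interval 18.0 to 20.3) and 24.0 FPKM in PRSS35 (interval 22.6 to 25.3). It differed in direction from TARS. EARS2, which attaches glutamate, was at 16.0 FPKM in EV (interval 15.0 to 17.1) and 18.4 FPKM in PRSS35 (interval 17.3 to 19.6). LARS2, for leucine, was at 7.91 FPKM in EV (interval 7.40 to 8.42) and 9.45 FPKM in PRSS35 (interval 8.90 to 10.0). MARS2, a gene of 1 exon for methionine, was at 5.73 FPKM in EV (interval 5.22 to 6.25) and 6.93 FPKM in PRSS35 (interval 6.37 to 7.50). All 4 were higher with no overlap, as were CARS2 and, at its joined locus, AARS2. FARS2, NARS2, PARS2, RARS2, WARS2 and YARS2 had ratios from 0.00 to 0.11 and overlapping intervals, and WARS2 was the least abundant member of all, at 2.24 and 2.25 FPKM.

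By class, 9 of 18 class I genes were higher with no overlap and 1, VARS, was lower. Of 17 class II genes, 6 (35.3%) were higher and 3 (17.6%) were lower, namely FARSA, SARS2 and HARS2, the last with its joined locus in EV. Among all expressed names, 25.1% were higher and 15.5% were lower. EPRS holds a domain of each class and was counted in neither. The median log2 ratio was 0.15 for class I and 0.09 for class II.

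Within amino acids, the cytosolic enzyme was more abundant than the mitochondrial enzyme in 14 of 15 pairs in either library, which cover 14 amino acids. The ratio of FPKM, cytosolic over mitochondrial, had a median of 2.83 in EV and 2.58 in PRSS35. It was largest for alanine, at 34.76 in EV and 27.46 in PRSS35, but there the AARS locus is joined with EXOSC6 in both libraries and the AARS2 locus with TCTE1 in PRSS35 only. Next were FARSA over FARS2 at 27.33 and 21.39 and methionine at 24.89 and 23.39. Tryptophan was in the same range, at 17.61 in EV and 21.55 in PRSS35. All other pairs were at 5.04 or less, so the pairs form a high and a low set in both libraries. Leucine was the exception in direction, at 0.90 in EV and 0.76 in PRSS35. In valine the ratio was 3.20 in EV and 2.08 in PRSS35, and in serine 3.03 and 4.71. In histidine it was 1.58 in EV, with the joined HARS2 locus, and 5.04 in PRSS35.

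The calls are set out here by whether Cufflinks assembled the locus from the reads. Of 17 members whose locus was assembled in both libraries, 7 (41.2%) were higher and 4 (23.5%) were lower with no overlap. The 4 were VARS, FARSA, SARS2 and HARS2, the last with its joined locus in EV. Of the 11 members that kept the annotated locus in both libraries, 4 were higher and none was lower, and of the 8 assembled in 1 library 4 were higher and none was lower. Among all expressed names assembled in both libraries, 24.7% were higher and 19.1% were lower with no overlap. The shares were 23.5% and 6.80% for names assembled in neither, and 28.2% and 14.2% for those assembled in 1 library. The part of assembly in the members' differences was not tested. The annotated genes of 12 members overlap another protein-coding gene, and for 11 of them the partner lies on the opposite strand. A use of strand in library making or counting is not given in the sources used here, so reads in such overlaps cannot be told apart. MARS, for instance, overlaps DDIT3 by 982 bases, and DDIT3 is listed at 0 in both libraries.

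The amino acid response, of which many cytosolic synthetase genes are known targets, was read from a list of 30 genes, 26 of them expressed. Of the 26, 13 were higher and 4 (15.4%) were lower in PRSS35 with no overlap of the intervals, beside 25.1% and 15.5% of all expressed names, so the share that was lower is at the background. The median log2 ratio was 0.17, beside 0.06 for all expressed names. ATF4 itself was at 383 FPKM in EV (interval 366 to 400.2) and 441 FPKM in PRSS35 (interval 422 to 461). ASNS, the asparagine synthetase that serves as a standard target of this response, was at 71.9 FPKM in EV (interval 68.1 to 75.6) and 99.3 FPKM in PRSS35 (interval 94.4 to 104). DDIT4, an inhibitor of mTORC1 signalling that also responds to hypoxia, was at 127 FPKM in EV (interval 124 to 130.2) and 241 FPKM in PRSS35 (interval 236 to 246). NUPR1, a stress protein gene, was at 51.4 FPKM in EV (interval 47.4 to 55.4) and 81.4 FPKM in PRSS35 (interval 76.1 to 86.6). These 2 were the genes of the list past 1.5-fold, which 5.23% of expressed names were in that direction, and none was lower by that much. TRIB3, a feedback inhibitor of ATF4, was at 47.8 FPKM in EV and 44.2 FPKM in PRSS35 with overlapping intervals. EIF2AK4, the kinase GCN2 that senses uncharged transfer RNA, was at 11.6 FPKM in EV (interval 10.8 to 12.5) and 9.82 FPKM in PRSS35 (interval 9.07 to 10.6), lower with no overlap. The other 3 lower genes were SLC7A5 and SLC3A2, the subunits of a transporter of large neutral amino acids, with log2 ratios of -0.34 and -0.22, and SHMT2, a mitochondrial enzyme of serine breakdown, with -0.15. These 4 genes are named after their values were seen.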

How the data were processed

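The authors aligned the reads of 1 EV and 1 PRSS35 library to hg19 with TopHat2 2.1.0 and ran Cufflinks (listed as Cuffdiff 2.2.1 in the submitters' processing notes, which also name dm6, a fly genome not used here). The deposited values are FPKM per locus with a lower and upper bound. The annotation release and options are not given in the sources used here. No counts were used.

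FPKM was summed over loci of the same name, also where the name stood in a joined locus. A name counted as expressed when its FPKM averaged 1 or more over both libraries. Log2 ratios used a pseudocount of 1 FPKM, which understates the change of low genes. A name was called at 1.5-fold, or by bounds that did not overlap. The 95% intervals take the distance from FPKM to its upper bound as 2 SD. An interval's implied fragments are the square of 2 times FPKM over that distance, an estimate and not a count. GC content came from 1 canonical transcript per gene, for 90.1% of expressed names. The members and lists were chosen with earlier results of these data known. All members are reported, in full for those called or most abundant. Scripts were tested on simulated data. Alternatives tried were other pseudocounts, filters, scalings, thresholds and choices of loci, and, after the data were seen, sums over joined partners and GC matching. Figures were drawn with matplotlib 3.10.9, and tables were computed with pandas 2.3.3 and numpy 2.4.6 under Python 3.11.15.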

Additional observations from a re-analysis of the deposited data

How the results depend on the processing

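Scaling to the sum of all loci gave medians of 0.77 for all members, 0.77 for the cytosolic and 0.77 for the mitochondrial enzymes. Then 28 members were at least 1.5-fold higher and 1 lower, and 34 were higher and 1 lower with separate intervals. Of the members lower before by separate intervals, VARS (0.11), FARSA (0.41) and SARS2 (0.33) changed sign, as did KARS, NARS, RARS and TARS. In all, 35 members lay above 0, as did 95.7% of expressed names. This sum is carried largely by unnamed loci. With the sum over named loci the medians were 0.14 for all members and 0.12 for the cytosolic set, with 1 member (HARS2) past 1.5-fold lower and VARS at -0.55. Upper quartile scaling gave medians of 0.03, 0.01 and 0.04 and 7 members lower by separate intervals, and centring on the median of expressed names gave 0.04, 0.01 and 0.04. Relative to names alike in GC, chosen after seeing the data, the medians were 0.01, 0.00 and 0.01, with 1 member (HARS2) past 1.5-fold lower.

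The 2 members lower by 1.5-fold became 1 with a pseudocount of 5 FPKM or a 2-fold threshold (HARS2), and 1 (VARS) without members at joined loci, or with HARS2 and AARS2 summed with their partner, which was added after seeing the data. With annotated loci in both libraries only, which leaves 11 members, the number was 0, and 4 were higher and 0 lower by separate intervals. The difference of medians, cytosolic minus mitochondrial, stayed between -0.04 and 0.00. No paired analysis was possible because EV and PRSS35 have 1 library apiece, which also leaves no replicate to omit. RARS2 and WARS2 had the fewest implied fragments in EV, 100 and 161. PARS2, at 7.07 FPKM beside 7.13 FPKM for RARS2, had 463, so this number does not follow depth alone.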

Other observations

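Further genes of transfer RNA charging and use were listed with the members, and those named were chosen after their values were seen. Among the helper, editing, selenocysteine and export genes, the log2 ratios ran from -0.35 for PSTK to 0.37 for GATC and 0.38 for DTD1. Of all expressed names, 25.1% were higher with no overlap of the intervals. Of the 4 mitochondrial helpers, GATC, a subunit of the amidotransferase that makes glutaminyl-tRNA in mitochondria, was at 12.6 FPKM in EV and 16.7 FPKM in PRSS35, higher with no overlap of the intervals. The other subunits QRSL1 and GATB, and MTFMT, which formylates the initiator methionyl-tRNA, had overlapping intervals. Of 3 editing genes, DTD1, a D-aminoacyl-tRNA deacylase, was at 25.0 and 32.8 FPKM and AARSD1, at a joined locus, at 42.2 and 50.3 FPKM, both higher with no overlap, and DTD2 was at 4.67 and 4.56 FPKM. The selenocysteine genes were low, with SEPSECS at 0.568 and 0.691 FPKM and PSTK at 1.80 and 1.20 FPKM, and XPOT, which exports transfer RNA from the nucleus, was at 12.2 and 12.8 FPKM.

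The cytosolic elongation factors ran from 296 to 2704 FPKM in EV, a range that overlaps that of the synthetases, since FARSA was at 407 FPKM. The highest, EEF1G, was at a locus joined with another gene in both libraries, and EEF2 at a locus joined in PRSS35 only. EEF1A1, which carries charged transfer RNA to the ribosome, was at 1526 FPKM in EV and 1669 FPKM in PRSS35. EEF1D had a log2 ratio of 0.46, at a locus joined with another gene in EV only. Of the 4 mitochondrial factors, TSFM was at 28.2 FPKM in EV and 32.2 FPKM in PRSS35, higher with no overlap. TUFM, GFM1 and GFM2 had ratios from -0.18 to -0.06 with overlapping intervals. The loci of TSFM and TUFM were joined with another gene in both libraries.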
